A study of Mus musculus with 4 samples.

Results

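Axon guidance ligands and receptors were examined in ventral midbrain tissue, the home of the dopamine neurons of the nigra and the tegmental area. Genes were chosen by symbol, from the semaphorin, plexin, neuropilin, ephrin, Eph receptor, Slit, Robo, netrin, netrin-G, Unc5 and Dcc families. No measured value entered this rule, but the families were picked with earlier results of these data known. Of the 19938 genes with a probe set of their own, 69 belonged to these families. RNA came from male mice of 10 to 15 weeks on a C57BL/6J background. The 2 RKO arrays were of mice labelled as knock-out for Rev-erba, the clock repressor (REV-ERBα) that Nr1d1 encodes, and the 2 WT arrays were of wild-type mice. Both groups had been kept under 12 h of light a day for more than 10 days and then in constant darkness for 2 days before tissue was taken. The sources used here do not give the clock hour of collection, which part of Nr1d1 was deleted or how many mice stand behind an array. The labels call the arrays of a group biological replicates, and p-values rest on the spread between these arrays, pooled in part over genes.

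Guidance genes encode cues and their receptors, which steer growing axons by attraction or repulsion and, in the adult brain, take part in synapse upkeep, myelination and the growth of vessels. Netrins act through DCC and UNC5 receptors, semaphorins through plexins with or without neuropilins, Slits through Robos, and ephrins through Eph receptor kinases. In the midbrain several of these pairs are known for laying out dopamine axons on their way to the striatum and forebrain.

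Each probe set had 1 normalized intensity per array on a linear scale in arbitrary units. Differences are RKO minus WT on the log2 scale and are given with limma's moderated standard error (SE, n = 2 arrays per group). That error draws each gene's spread toward that of all tested genes, with 8.73 prior against 2 residual degrees of freedom. Genes with an adjusted p under 0.05 over all 13587 tested genes were called changed. The precision of every value is limited by the number of arrays. Nr1d1 itself was lower in both RKO arrays, at 1259 and 1229.7, against 2897 and 3099 in the WT arrays (log2 difference -1.27, SE 0.0641, limma adjusted p = 0.00385 over 19938 genes with no filter, and 2.44e-06 over the 13587 genes that passed it). It has 1 probe set, and whether that lies in the deleted part is not known. RKO replicate 1 had the lowest median over the tested genes, at 539.8, against 558.6 in RKO replicate 2 and 558.6 to 558.7 in the WT arrays. It was the lowest of the 4 arrays for 39 of the 65 tested guidance genes (60%) and for 43.6% of all tested genes. By correlation of log2 values over all probe sets, the 2 RKO arrays were the most alike (0.9956). The pairs with WT replicate 1 were the least alike (0.9934 to 0.9938).

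Of the 69 guidance genes, 65 were bright enough to be tested. Ntn1 rose, 0 fell, and 64 did not pass in limma, so 1.54% of them were called, against 1.6% of all tested genes (0.64% higher and 0.964% lower). That share is near the background and is no result about the families. Most differences were small and negative: 46 of the 65 lay below 0, or 70.8%, against 56.8% of all tested genes. Their median was -0.05, against -0.01 over all tested genes. At an unadjusted p under 0.05 there were 18 of the 65 (27.7%, against 12.8% of all tested genes), of which 14 were lower (21.5%, against 6.9% of all tested genes) and 4 were higher (6.15%, against 5.9%). Both RKO arrays lay below both WT arrays for 30 genes (46.2%, against 24.6% of all tested genes) and above them for 10 (15.4%, against 17.2%).

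The count of lower genes was smaller in each of the 4 fits that left out 1 array, and smallest without RKO replicate 1. Without this array, 5 of the 65 were lower at an unadjusted p under 0.05 (3.65% of all tested genes), 4 were higher (4.17% of all tested genes), and 0 were called in limma. Without RKO replicate 2, 13 were lower at that p (8.17% of all tested genes) and 3 were higher (6.62%). The median of the guidance genes was -0.03 without RKO replicate 1 and -0.07 without RKO replicate 2, against 0.01 and -0.03 over all tested genes. It was -0.05 without WT replicate 1 and -0.07 without WT replicate 2, against -0.01 over all tested genes in each case.

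**Figure D1:**
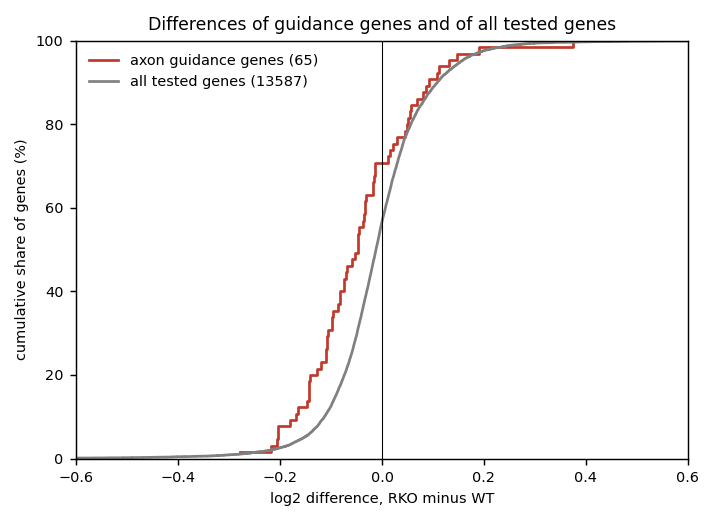
The cumulative share of genes (percent) is plotted against the log2 difference, RKO minus WT, for the 65 tested axon guidance genes (red) and all 13587 tested genes (grey). The red curve lies left of the grey one over most of the range below 0, with medians of -0.05 and -0.01, and Ntn1 is its last step at the right.

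The intervals show how large the differences could be. For 59 of the 65 genes the 95% interval lay within 0.32 either way on the log2 scale, and for all 65 it lay within 1.5-fold. The 6 genes whose interval reached past 0.32 were Ntn1, Plxnc1, Plxnd1, Unc5b, Efna2 and Sema3d. These intervals are those of single genes and are not adjusted for the number of genes.

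**Figure D2:**
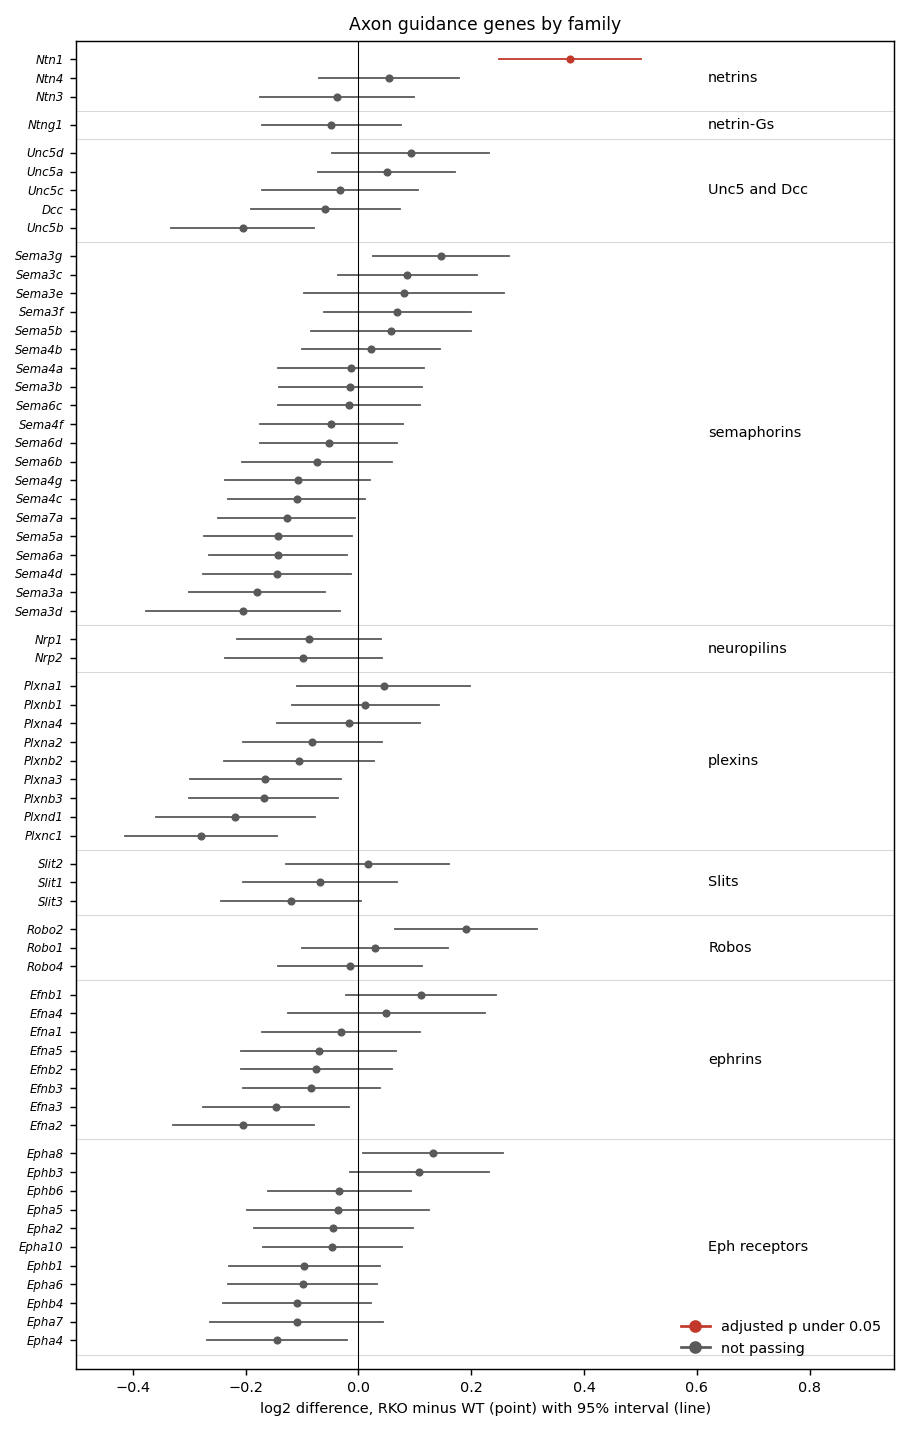
Log2 differences, RKO minus WT, are shown for the 65 tested axon guidance genes, grouped by family (points, with 95% intervals of limma as lines, 2 arrays per group). Ntn1, in red, is the one gene that passed the adjusted threshold, at 0.37, and most of the plexins and semaphorins lie left of 0.

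Ntn1 encodes netrin 1, the secreted cue that attracts axons through DCC and repels them through UNC5 receptors. Its intensity was 491 and 485 in the RKO arrays, against 386 and 367 in the WT arrays. Both RKO arrays were well above both WT arrays, and the groups did not overlap. The rise was 1.30-fold (log2 difference 0.37, SE 0.0569, 95% interval 0.25 to 0.50, limma adjusted p = 0.00697), and the 4 differences between single RKO and WT arrays ran from 0.33 to 0.42. The call was lost with no filter on dim probe sets (adjusted p = 0.123), without RKO replicate 1 (0.0881) and without RKO replicate 2 (0.0597), while the difference stayed between 0.34 and 0.41 under all 13 alternative settings. Ntn1 lies on chromosome 11, the chromosome of Nr1d1, as do Slit3 (-0.12) and Efnb3 (-0.08), neither of which passed.

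The other netrins gave no call. Ntn4, a netrin of basement membranes, measured 269 and 257 in the RKO arrays, against 253 and 253 in the WT arrays (0.05, SE 0.0564). Its groups were apart by a narrow margin. Ntn3, which also binds DCC and UNC5 receptors, stood at -0.04 with overlapping arrays. Ntn5 was too dim to be tested, at 114 and 118 in the RKO arrays and 97.6 and 104.9 in the WT arrays. Ntng1 encodes netrin G1, which is tied to the membrane of axons and binds the postsynaptic protein encoded by Lrrc4c. It read 2993 and 3093 in the RKO arrays, against 3116 and 3175 in the WT arrays (-0.05, SE 0.0557). A second Ntng1 probe set was at -0.02, with overlapping arrays. The probe set of Ntng2 also carries a second symbol and was not analysed here.

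None of the 5 netrin receptors passed in limma, and 1 of them, Unc5b, had an unadjusted p under 0.05. Unc5b encodes a repulsive receptor that is also found on endothelial tip cells. It measured 633 and 667 in the RKO arrays, against 761 and 737 in the WT arrays, so both RKO arrays were lower (-0.21, SE 0.0577, adjusted p = 0.13). Dcc, which mediates attraction, was at 844 and 905 in the RKO arrays and 927 and 894 in the WT arrays. Its arrays overlapped (-0.06, 95% interval -0.19 to 0.07, adjusted p = 0.785). The repulsive receptors Unc5a (0.05), Unc5c (-0.03) and Unc5d (0.09) likewise did not pass. A second Unc5d probe set had the opposite sign, at -0.01. The ligand Ntn1 was called and its receptors were not, and the difference between them was not tested.

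Semaphorins are the largest of these families, with 20 genes, all tested. None passed in limma, 1 was higher and 6 were lower at an unadjusted p under 0.05, and 14 lay below 0 (median -0.05, 13 below 0 under quantile normalization). Among the secreted class 3 genes, Sema3a, a strong repellent that binds neuropilin 1, had 203 and 205 in the RKO arrays, against 232 and 230.45 in the WT arrays. Replicates were close and the groups were apart (-0.18, SE 0.0546, adjusted p = 0.163). Sema3g, expressed by endothelium and a ligand of neuropilin 2, went the other way, at 255 and 257 in the RKO arrays, against 233 and 230.3 in the WT arrays (0.15, SE 0.0547, adjusted p = 0.278). Sema3d read 253 and 249 in the RKO arrays, against 316 and 265 in the WT arrays. WT replicate 1 alone was high, and the difference of -0.21 (SE 0.0777, adjusted p = 0.283) became -0.33 (adjusted p = 0.0252) without WT replicate 2 and -0.08 (adjusted p = 0.952) without WT replicate 1. Sema3c, which attracts dopamine axons in rodents, was at 0.09, Sema3e, the ligand of plexin D1, at 0.08, Sema3f, a repellent acting through neuropilin 2, at 0.07, and Sema3b at -0.01. Class 3 genes thus lay on both sides of 0, with 4 of 7 above it.

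The membrane-bound semaphorins of classes 4 to 7 lay mostly below 0, with 2 of their 13 genes, Sema4b (0.02) and Sema5b (0.06), above it. Sema6a, a transmembrane ligand of plexins A2 and A4, read 2119 and 2114 in the RKO arrays, against 2374 and 2299 in the WT arrays (-0.14, SE 0.0554, adjusted p = 0.299). Sema4d, a ligand of plexin B1 that oligodendrocytes make, read 868 and 934 in the RKO arrays, against 995.2 and 994.5 in the WT arrays (-0.14, SE 0.0592, adjusted p = 0.328). In both genes the RKO arrays were the lower ones. The second probe set of Sema4d differed alike (-0.12). Sema5a, which binds plexin B3, was at -0.14 (adjusted p = 0.339) and Sema7a, a ligand tethered to the membrane by a lipid anchor, at -0.13 (adjusted p = 0.358). Sema6d, whose receptor is plexin A1, had 2682 and 2698 in the RKO arrays, against 2824 and 2756 in the WT arrays (-0.05, adjusted p = 0.792). Sema4c (-0.11), Sema4g (-0.11), Sema6b (-0.07), Sema4f (-0.05), Sema6c (-0.02) and Sema4a (-0.01, above 0 under quantile normalization) made up the rest and did not pass. Both probe sets of Sema6b held the same values.

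Both neuropilins, the ligand-binding partners of plexins for class 3 semaphorins, were measured and 0 passed in limma, also at an unadjusted p under 0.05. Nrp1 read 445 and 462 in the RKO arrays, against 471 and 493 in the WT arrays (-0.09, SE 0.0576). Nrp2 read 394 and 416 in the RKO arrays, against 452 and 415 in the WT arrays, with overlap (-0.10, SE 0.0629).

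Plexins, the signalling receptors of semaphorins, had the lowest median of the families with 3 or more tested genes, at -0.11 over 9 genes. None passed in limma, 4 were lower and 0 higher at an unadjusted p under 0.05, and 7 lay below 0 (6 under quantile normalization). Plxnc1 encodes plexin C1, the receptor of semaphorin 7A. It read 669 and 731 in the RKO arrays, against 851 and 846 in the WT arrays. Both RKO arrays were lower by a clear gap, with RKO replicate 1 the lowest. The difference of -0.28 (SE 0.0611, 95% interval -0.41 to -0.14) had a limma adjusted p of 0.0523 and so fell just short of a call. It passed under 6 of the 13 alternative settings and lay between -0.34 and -0.22 under all of them. Its value was -0.22 without RKO replicate 1 (adjusted p = 0.383). The ligand Sema7a and its receptor Plxnc1 thus both lay below 0, neither with a call.

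Plxnd1 encodes the receptor of semaphorin 3E, best known from endothelium. It had 343 and 379 in the RKO arrays, against 412 and 427 in the WT arrays (-0.22, SE 0.0639, adjusted p = 0.15). The RKO arrays were lower, and the difference was -0.15 without RKO replicate 1 (adjusted p = 0.687). Plxnb3, a receptor found on oligodendrocytes, had 835 and 892 in the RKO arrays, against 951 and 988 in the WT arrays (-0.17, SE 0.0595, adjusted p = 0.252). Plxna3, which works with neuropilins in class 3 signalling, had 532 and 579 in the RKO arrays, against 619 and 625 in the WT arrays (-0.17, SE 0.0606, adjusted p = 0.269). For all 3 the groups were apart, and RKO replicate 1 was again the lowest array. Without it, Plxnb3 was at -0.12 (unadjusted p = 0.114) and Plxna3 at -0.10 (unadjusted p = 0.15) in limma, and Plxnd1 had an unadjusted p of 0.062, so that of the 4 lower plexins only Plxnc1 stayed under 0.05 (unadjusted p = 0.011). Plxna2 (-0.08), Plxnb2 (-0.11), Plxna4 (-0.02, above 0 under quantile normalization), Plxnb1 (0.01) and Plxna1 (0.04) made up the rest. Plxna1 was the most spread of them, at 1119 and 1275 in the RKO arrays, against 1132 and 1184 in the WT arrays.

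**Figure D3:**
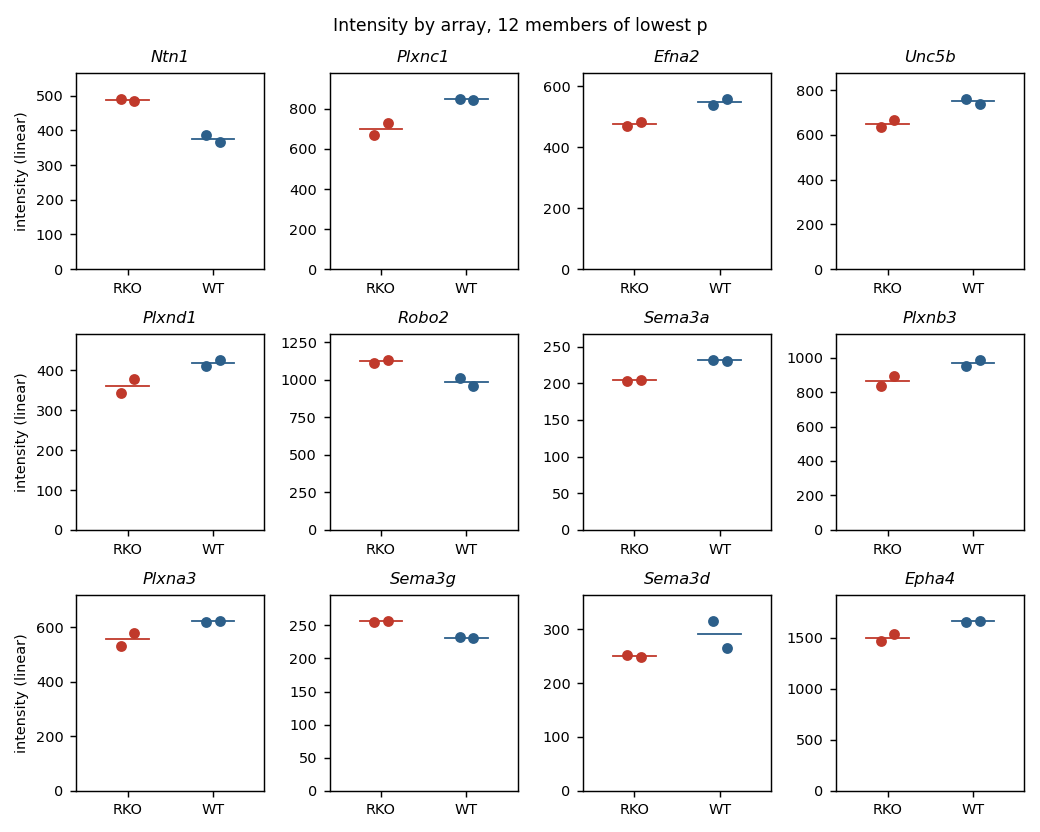
Linear intensity is shown by array for the 12 axon guidance genes of lowest p, RKO in red and WT in blue, with a line at the mean of the 2 arrays of a group and axes that start at 0. In all 12 the groups do not overlap, Ntn1, Robo2 and Sema3g being higher in RKO, and Sema3d shows 1 high WT array. The 12 were chosen by p, which favours groups that are apart. Of all tested genes, both RKO arrays lay above both WT arrays for 17.2% and below them for 24.6%.

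Promoters of the guidance genes were searched for the elements through which REV-ERBα and the clock act, because the RKO mice are labelled as knock-out for that factor. RefSeq promoters of GRCm38.p6, from 250 bases before to 50 bases after a start, were at hand for 59 of the 69 genes (75 promoters) and for 11 of the 12 genes of lowest p, Ntn1 being the other. On both strands, AGGTCA, the half-site of REV-ERB and ROR receptors, was in 11 of the 75 promoters (14.7%), against 16.3% of all 32851 promoters. With a T before it (TAGGTCA, every match of which is also a match of the shorter motif) it was in 0 of the 75, against 2.61% of all. The E-box CACGTG was in 5 (6.67%, against 7.15% of all) and the D-box TTATGTAA in 0 (against 0.938% of all). Of the 11 genes of lowest p, Plxnd1 held the half-site and Robo2 an E-box, and these promoters are printed for that reason, with the match in capitals. In Plxnd1 the match reads TGACCT, the half-site on the other strand, and begins 103 bases before the start, at chr6:115994956-115995255 on the minus strand. A match is a description of the letters and not a binding site.
Plxnd1: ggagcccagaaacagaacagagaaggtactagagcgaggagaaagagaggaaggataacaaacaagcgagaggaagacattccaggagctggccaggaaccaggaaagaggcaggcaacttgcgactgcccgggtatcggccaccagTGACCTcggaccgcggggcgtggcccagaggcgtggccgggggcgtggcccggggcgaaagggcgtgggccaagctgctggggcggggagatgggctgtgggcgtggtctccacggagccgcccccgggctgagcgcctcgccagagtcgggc

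Slits are large secreted repellents and Robos are their receptors. None of the 6 tested genes passed in limma, and 1, Robo2, had an unadjusted p under 0.05. Robo2 encodes a receptor that keeps commissural and dopamine axons away from the midline. It measured 1112 and 1133 in the RKO arrays, against 1009.6 and 958 in the WT arrays. The RKO arrays were higher (0.19, SE 0.0572, 95% interval 0.06 to 0.32, adjusted p = 0.16). Its E-box begins 18 bases before 1 of its 3 listed starts, in chr16:75447244-75447543 on the minus strand.
Robo2: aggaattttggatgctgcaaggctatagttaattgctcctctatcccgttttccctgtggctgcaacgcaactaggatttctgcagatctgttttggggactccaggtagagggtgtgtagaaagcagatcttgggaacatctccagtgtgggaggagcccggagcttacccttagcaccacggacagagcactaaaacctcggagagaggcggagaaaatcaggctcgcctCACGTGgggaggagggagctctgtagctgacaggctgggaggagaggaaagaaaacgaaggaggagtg

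Its close relative Robo1 had 1544 and 1632 in the RKO arrays, against 1585 and 1527 in the WT arrays, and these overlapped (0.03, SE 0.0583). Robo4, a receptor of endothelium, was at -0.01, and Robo3, of commissural neurons, was below the filter at 132 to 137 in the RKO arrays and 138 to 139.8 in the WT arrays. Slit3 was at -0.12 (adjusted p = 0.415) with the RKO arrays lower, at 437 and 455, against 479 and 489 in the WT arrays. Slit1 (-0.07) and Slit2 (0.02) overlapped between the groups. In Slit1 the difference came from RKO replicate 1, at 773, with 851 in RKO replicate 2, against 849 and 851 in the WT arrays.

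Ephrins are membrane-bound cues whose A forms hang on a lipid anchor and whose B forms cross the membrane. Of 8 tested, 0 passed in limma, 2 were lower at an unadjusted p under 0.05 and 6 lay below 0 (median -0.07). Efna2, which acts in topographic mapping, had 469 and 482 in the RKO arrays, against 537 and 559 in the WT arrays. Here the groups were apart (-0.20, SE 0.0565, adjusted p = 0.124). Efna3 had 1278 and 1372 in the RKO arrays, against 1464 and 1467 in the WT arrays (-0.15, SE 0.0589, adjusted p = 0.317). Efnb3, a midline repellent of corticospinal axons, was at -0.08, with 1498 and 1469 in the RKO arrays, against 1569 and 1573 in the WT arrays. Efnb2 (-0.07), the ephrin of arterial endothelium, and Efna5 (-0.07) were lower by a narrow margin, and in Efna5 the gap rested on WT replicate 1, at 693, against 631 in WT replicate 2 and 629 and 631 in the RKO arrays. Efna1 (-0.03) and Efna4 (0.05) overlapped, and Efnb1 was higher in both RKO arrays without passing (0.11, adjusted p = 0.496).

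Eph receptors are the tyrosine kinases that bind ephrins. Of 13 measured, 11 were tested, 0 passed in limma, 1 was higher and 1 was lower at an unadjusted p under 0.05, and 9 lay below 0 (median -0.05). Epha4, which binds ephrins of both classes, read 1471 and 1532 in the RKO arrays, against 1649 and 1668 in the WT arrays. The RKO arrays were lower (-0.14, SE 0.0561, adjusted p = 0.299). Epha8, a receptor known from the superior colliculus, was higher at 377.6 and 377.8 in the RKO arrays, against 337 and 353 in the WT arrays (0.13, SE 0.0563, adjusted p = 0.352). Ephb3 was also higher in both RKO arrays (0.11, adjusted p = 0.473). The others below 0 with the groups apart were Ephb4 (-0.11), the receptor of venous endothelium, Epha6 (-0.10), Ephb1 (-0.10) and Epha10 (-0.05). In a second probe set of Ephb1 (-0.05) and of Epha10 (-0.04) the groups overlapped. Epha7 (-0.11), Epha2 (-0.04), Epha5 (-0.04) and Ephb6 (-0.03) overlapped. Epha1 and Epha3 were below the filter at 143 to 152 and 144 to 147 in the RKO arrays, against 145 to 154 and 134 to 161 in the WT arrays. All 11 tested Eph receptors had a 95% interval within 0.32 either way on the log2 scale.

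Other genes of these pathways came from lists of further cues, coreceptors and signalling proteins. They gave 1 call among 60 tested genes, a lower Vav3, against 1.6% of all tested genes called. That is near the background and is no result about the pathways. Their median was -0.02, against -0.01 over all tested genes. Vav3 encodes a signalling protein that Eph receptors recruit. It read 637 and 624 in the RKO arrays, against 818 and 759 in the WT arrays, so the groups were apart (-0.32, SE 0.0597, limma adjusted p = 0.0221). The call was lost with no filter, under quantile normalization, without either RKO array and without WT replicate 1. None of 18 further cues and coreceptors (median -0.04) passed in limma. Neither did any of 17 effectors of semaphorins and plexins (0.01) or 13 effectors of Slits and netrins (-0.03). At an unadjusted p under 0.05 these lists held 1, 0 and 5 genes, against 12.8% of all tested genes. The last included Srgap3 (0.16) and Srgap1 (-0.18), GTPase-activating proteins that bind Robo receptors, Trim9 (0.16), a ubiquitin ligase that binds DCC, Dock1 (-0.20), which acts downstream of DCC, and Dapk1 (0.15), a kinase that binds UNC5 receptors.

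Markers of cell types and regions that express guidance genes also differed between the arrays. The marker lists were chosen with earlier results of these data known, so their counts of calls are descriptions and no test. Of all tested genes, 0.64% were called higher and 0.964% lower. Calls are counted among tested genes, while sums of intensity run over all measured genes of a list. The sums thus include genes under the filter, 3 tectal, 3 leptomeningeal, 2 of cortex and hippocampus and 1 of microglia. The 17 markers of dopamine neurons, 8 of them called higher, summed to 119% and 124% of the WT mean in the RKO arrays, against 99.1% and 100.9% in the WT arrays. Th among them was higher by 0.72. A list of midbrain tectum, red nucleus and caudal genes, 1 of 9 tested called higher, stood at 114.9% and 115.1% in the RKO arrays, against 100.004% and 99.9963% in the WT arrays. Both lists were higher in RKO, as were Ntn1, Robo2, Sema3g and Epha8, the 4 guidance genes higher at an unadjusted p under 0.05. A link between the lists and these genes was not tested. On the other side, the leptomeningeal list, 11 of 19 called lower, stood at 78.1% and 78.9% in the RKO arrays, against 98.9% and 101.1% in the WT arrays. In that list 4 of the 19 lay above 0 without a call, Igfbp2 (0.14), Col1a1 (0.13), Col3a1 (0.08) and Col1a2 (0.07). In each of these both RKO arrays were above both WT arrays. The thalamus list, 3 of 13 called lower, stood at 84.3% and 86.4% in the RKO arrays, against 99.4% and 100.6% in the WT arrays. The 3 were Ramp3, Prkcd and Rora, with Prkcd at means of 2362 in RKO and 3493 in WT. Of the 13, 10 lay below 0 and 3 above it, Lhx9 (0.06), Lhx2 (0.05) and Tcf7l2 (0.003).

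Smaller shifts were seen for the other marker lists. Oligodendrocyte markers, 1 of 12 called lower, stood at 93.2% and 93.8% in the RKO arrays, against 101.1% and 98.9% in the WT arrays. Endothelial and pericyte markers, 0 of 13 called in limma, stood at 91.2% and 96.9% in the RKO arrays, against 99.7% and 100.3% in the WT arrays. At an unadjusted p under 0.05, 4 of these 13 were lower and 1, Cldn5 (0.19), was higher. Hypothalamus markers (3 of 12 called lower) stood at 89.0% and 86.2% in the RKO arrays, against 98.2% and 101.8% in the WT arrays, and cortex and hippocampus markers (1 of 6 called lower) at 90.0% and 93.5%, against 99.2% and 100.8% in the WT arrays. Choroid plexus and ependyma (1 of 10 called lower), microglia (0 of 10 in limma, 1 at an unadjusted p under 0.05), astrocyte (2 of 13 called lower) and oligodendrocyte precursor (0 of 9 in limma, 2 at that p) lists stood at 94.2% to 105.0% in the RKO arrays, against 98.2% to 101.8% in the WT arrays. Bright genes weigh most in such sums. In the choroid plexus list this was Ttr, with means of 7375 in RKO and 6804 in WT, while Kcnj13 was called lower (-0.37). In the astrocyte list these were Aldoc (10547 in RKO, 10170 in WT) and Ndrg2 (10023 in RKO, 9985 in WT). Gfap (-0.51) and Aldh1l1 (-0.31) were called lower there. At that p, 4 astrocyte markers were lower and 2 were higher. In the hypothalamus list the median difference was -0.05, with 5 of 12 above 0 and 2 higher at an unadjusted p under 0.05. Its lower sum came mostly from the neuropeptide genes Pmch, with means of 259 in RKO and 570.4 in WT, and Hcrt, with means of 309.7 in RKO and 444 in WT. The cortex and hippocampus list likewise had a median of -0.04, with 2 of 6 above 0. No marker in these lists was at 0 on any array, the lowest intensity being 42.5. The part of these shifts in the differences of guidance genes was not tested. In whole tissue, fewer cells of a type and less RNA per cell cannot be told apart.

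**Figure D4:**
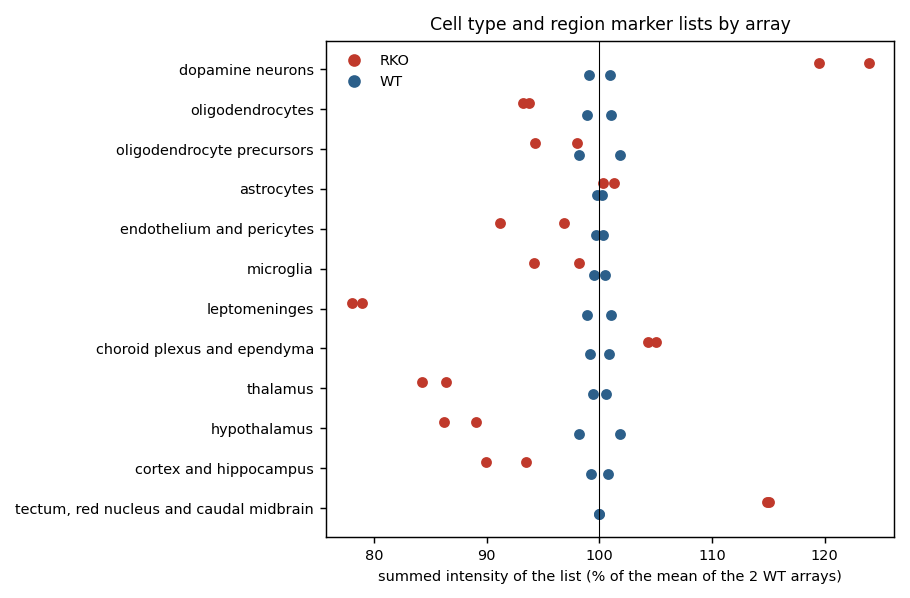
The summed intensity of each marker list, genes under the filter included, is shown by array as a percent of the mean of the 2 WT arrays, RKO in red and WT in blue. The RKO arrays lie at 119% and 124% for dopamine neurons and at 78.1% and 78.9% for leptomeninges, and the WT arrays lie between 98.2% and 101.8% for every list.

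The sign of a difference held under other scalings for most guidance genes. Under median centring and quantile normalization, 63 of the 65 kept their sign, the exceptions being Plxna4 and Sema4a. The 12 genes of lowest p kept their sign under every alternative setting in which they were tested. Only median centring and quantile normalization could have turned a sign there. These genes have groups that do not overlap and 1 probe set each, so the other settings could not.

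Calls varied with the setting, and so did the share of all tested genes called in the same direction. Ntn1 was called higher under the 60th percentile filter (1.18% of all tested genes were called higher), median centring (1.41%), quantile normalization (0.53%), a pseudocount of 32 (0.802%) and robust eBayes (0.64%). It was also called with the mean of a gene's probe sets (0.673%), the replicate number as a block (0.773%), and without WT replicate 1 (0.478%) or 2 (1.05%). Robo2 joined it with an intensity trend in eBayes (1.4%). No guidance gene was called higher in limma with no filter (0.0401%), without RKO replicate 1 (0.236%) or without RKO replicate 2 (0.25%), while 4, 4 and 3 were higher at an unadjusted p under 0.05. In the same order, 6.11%, 4.17% and 6.62% of all tested genes were higher at that p.

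Plxnc1 was called lower under median centring (1.94% of all tested genes were called lower), a pseudocount of 32 (1.35%), the mean of probe sets (1.04%) and the replicate block (1.13%). The trend added Unc5b to it (2.27%), and the 60th percentile filter added Unc5b, Efna2 and Plxnd1 among 49 tested guidance genes (1.95%). Sema3d was the one called lower without WT replicate 2 (1.11%). With the replicate numbers crossed as a block, a setting chosen after seeing the data, Ntn1 was called higher (2.46%) and Plxnc1, Efna2, Plxnd1, Unc5b and Sema3d lower (2.66%). No guidance gene was called lower in limma with no filter (0.115%), quantile normalization (0.692%), robust eBayes (0.964%), or without RKO replicate 1 (0.302%), RKO replicate 2 (0.478%) or WT replicate 1 (0.751%), and 5 to 14 were lower there at an unadjusted p under 0.05. In the same settings, 3.65% to 8.17% of all tested genes were lower at that p.

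**Figure D5:**
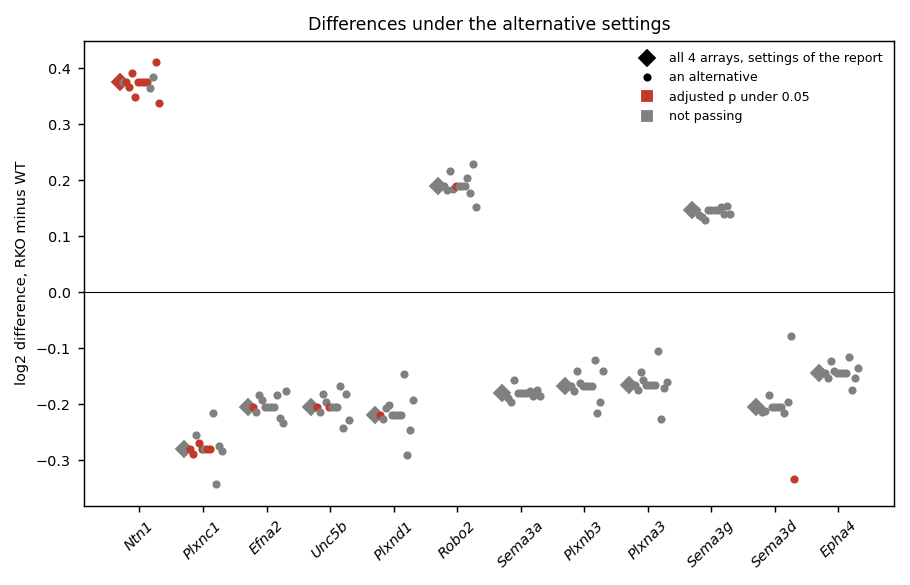
Log2 differences, RKO minus WT, of the 12 axon guidance genes of lowest p are shown as reported (diamonds) and under each alternative setting (circles), in red where the limma adjusted p was under 0.05. Ntn1 stays between 0.34 and 0.41 and is red in most settings. No gene crosses 0, which only median centring and quantile normalization could have changed.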

How the data were processed

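The deposited values are linear normalized intensities, 1 for each of 35556 probe sets on each of the 4 Affymetrix mouse arrays. Per the submitters' processing notes GCOS and RMA were used, and no settings are given there. RMA as usually run aligns the distributions of the arrays, which removes shifts shared by most genes. The medians of the arrays were 236 to 240.1 over all probe sets. The sources do not describe the background step.

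Here the intensities were turned into log2 values with no pseudocount. By the platform annotation 21789 probe sets have 1 symbol, 1621 have several and 12146 are unnamed here. Each gene was represented by its brightest probe set (6 guidance genes had 2), and genes whose mean lay under the 40th percentile over all probe sets (log2 7.38, intensity 167) were left out. Groups were compared with limma 3.58.1 (lmFit, eBayes, R 4.3.3), two-sided, with Benjamini-Hochberg adjustment over 13587 genes, and the code was tested on simulated data. An exact permutation test of 2 against 2 arrays cannot go below p = 0.333. At most 5 values were identical between any 2 arrays.

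Values per array are given for the 12 guidance genes of lowest p and for the brightest and most different of each family, with a few more. Guidance genes, pathway and marker lists and alternative settings were chosen with earlier results of these data known.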

Additional observations from a re-analysis of the deposited data

How the results depend on the processing

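Over all genes, 218 were called as reported, 31 with no filter, 455 under median centring, 499 with an intensity trend, and 73 to 293 with 1 array left out. Of the guidance genes called higher, 1 as reported, there were 0 with no filter, 2 with the trend and 0 to 1 with 1 array left out. Of those called lower, 0 as reported in limma (14 at an unadjusted p under 0.05), there were 4 with the 60th percentile filter, 2 with the trend, 1 each under median centring, a pseudocount of 32 and the mean of a gene's probe sets, and 0 to 1 with 1 array left out. Of the other pathway genes, 1 was called as reported, 0 with no filter, 0 under quantile normalization, 4 with the trend and 0 to 1 with 1 array left out. Nr1d1 ranged from -1.32 to -1.22 with 1 array left out. In the fit over 19938 genes with no filter it lost its call without RKO replicate 1 (-1.28, adjusted p = 0.269) and without RKO replicate 2 (-1.25, adjusted p = 0.296), and in the fit over 13587 genes it passed without either (adjusted p = 0.000683 and 0.000874). The cause of these changes was not tested, apart from the fewer arrays or the other set of genes. The median of the guidance genes stayed between -0.07 and -0.04 in settings with all arrays.

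The labels do not say that a replicate number is shared between groups, and the deviations of same-numbered arrays had a correlation of -0.11 over the tested genes. With the number as a replicate block 259 genes were called, among them Ntn1 higher and 1 guidance gene lower, Plxnc1 (adjusted p = 0.0407). Crossing the numbers as a replicate block, a setting chosen after seeing the data, gave 696 genes, with 1 guidance gene higher and 5 lower. With 2 arrays per group, small differences near the threshold are the ones most limited by precision.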
